A study of Mus musculus with 90 samples.

Results

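The receptors and ligands of platelet-derived growth factor (PDGF) were followed in mouse melanomas treated with an antibody against PD-L1. The 5 genes are Pdgfra and Pdgfrb, which encode the receptors PDGFR alpha and PDGFR beta, and Pdgfa, Pdgfb and Pdgfc, which encode ligand chains. They were chosen by name, and every probe set annotated to one of them alone was used, which gave 11 probe sets (5 for the receptors and 6 for the ligands) of 34958 single-symbol probe sets, or 5 of 18194 genes. Expression was measured in 90 subcutaneous tumours, 1 array per tumour, as robust multi-array average (RMA) values on the log2 scale.

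All tumours carry the genotype label Hgftg;Cdk4R24C/R24C and the strain label B6.cBrd, and come from a melanoma allograft model. That genotype label, an Hgf transgene with the R24C change of Cdk4, is shared by treated and control groups. Treated mice received clone 80, an antibody to mouse PD-L1 of isotype mIgG1 with the D265A change, at 10 mg/kg, the antibody control was mouse IgG1 D265A at 10 mg/kg and the vehicle was PBS at 10 ml/kg; the series text also names a dose of 20 mg/kg. Study 2 held 17 responders, 14 non-responders, 3 relapsed tumours, 2 tumours with growth delay, 14 IgG tumours and 3 PBS tumours. Study 3 held 10 responders, 9 non-responders, 3 stabilized tumours, 3 relapsed tumours, 8 IgG tumours and 4 PBS tumours. A responder lost at least 5% of its volume, a non-responder kept growing, and a relapsed tumour had regressed below measurable size and grown back after 4 to 10 doses. Growth delay marks tumours that appeared only after treatment had begun, and stabilized tumours are responders whose volume did not change between consecutive measurements. Responders were collected as they regressed, after 2 to 12 doses, and non-responders at matching times; the number of doses a single tumour received was not used. In the labels the control and the treated mice carry separate blocks of animal numbers, so treatment and block cannot be told apart in a comparison with IgG. The PBS and IgG mice carry separate blocks too, so the same holds for IgG against PBS.

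PDGF chains form disulfide-linked dimers that bind PDGFR alpha, PDGFR beta or both, and the receptors are tyrosine kinases that signal through phosphatidylinositol 3-kinase, phospholipase C gamma and the Ras pathway. In most tissues the receptors sit on fibroblasts, pericytes and smooth muscle, and the ligands come from epithelium, endothelium, platelets, macrophages and many tumour cells. PDGF-B from endothelium recruits pericytes to vessels through PDGFR beta, and PDGF-A and PDGF-C act mainly on PDGFR alpha.

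On the mouse assembly GRCm38.p6, Pdgfra lies at chr5:75151322-75198206, Pdgfa at chr5:138976014-139000792, Pdgfb at chr15:79995865-80024614 and Pdgfc at chr3:81036416-81214040. The RefSeq promoter windows of Pdgfra and Pdgfc are shown because these genes varied together across the tumours, and a window of Pdgfa is shown because that gene did not rise with them. Each sequence is the 250 bases before an annotated start, 5′ to 3′ on the gene's strand, at chr5:75152001-75152250 (plus strand), chr3:81036166-81036415 (plus strand) and chr5:138994945-138995194 (minus strand). The Pdgfra and Pdgfa windows lie inside the gene interval, whose annotated end lies farther upstream. Capitals mark matches on either strand to 4 motifs. These are the GC box, spelled GGGCGG, the CCAAT box, the TATA box in the form TATAAA, and the AP-1 motif in the form TGANTCA.
Pdgfra: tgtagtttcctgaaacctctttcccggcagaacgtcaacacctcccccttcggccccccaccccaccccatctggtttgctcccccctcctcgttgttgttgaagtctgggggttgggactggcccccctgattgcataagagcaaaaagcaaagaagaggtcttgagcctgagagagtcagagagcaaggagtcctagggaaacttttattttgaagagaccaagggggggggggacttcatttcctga
Pdgfc: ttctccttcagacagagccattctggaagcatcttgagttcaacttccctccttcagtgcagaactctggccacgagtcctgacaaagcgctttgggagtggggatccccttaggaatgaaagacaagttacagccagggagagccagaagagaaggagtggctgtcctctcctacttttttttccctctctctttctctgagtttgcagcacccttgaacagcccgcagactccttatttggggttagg
Pdgfa: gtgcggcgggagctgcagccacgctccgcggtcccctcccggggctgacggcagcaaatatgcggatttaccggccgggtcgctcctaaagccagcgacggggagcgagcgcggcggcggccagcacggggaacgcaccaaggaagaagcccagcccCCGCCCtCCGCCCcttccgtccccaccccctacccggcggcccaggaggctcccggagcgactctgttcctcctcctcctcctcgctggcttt
The Pdgfra window was 54.4% G or C, the Pdgfc window 50.8% and the Pdgfa window 72.4%. None of the 4 motifs matched in the Pdgfra or Pdgfc window. The Pdgfa window held 2 GC boxes, 93 and 86 bases before the start, counted to the first base of each match, and these do not overlap. Another Pdgfa window, at chr5:138994282-138994531, is not shown. That window was 66.4% G or C and held 1 GC box and none of the other motifs. Among 32851 RefSeq windows of the same length, 32.7% held the GC box, 33.8% the CCAAT box, 12.4% the TATA box and 6.75% the AP-1 motif. These matches describe letters only.

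The tumour label was checked against marker lists, each summarised as the mean log2 value of its genes. The melanocyte list lay between 9.02 and 10.10 in 85 tumours and between 6.69 and 8.70 in the other 5. These 5 were study 2 non-responder 14, study 3 responders 3 and 4, and study 3 stabilized tumours 1 and 2. Their fibroblast lists lay between 10.71 and 12.24, against 6.20 to 11.59 in the other 85 tumours. The 4 genes other than Pdgfa were at the highest or second highest value of their group in each of these 5 tumours, so results are given with and without them. Cd274, which encodes the antibody's target PD-L1, was 1.74-fold higher in responders than in non-responders (limma adjusted p = 3.28e-05). The 3 prime minus 5 prime difference of the control transcripts, a measure of RNA quality, was 5.20 in study 3 PBS tumour 2 and at most 0.94 in the other 89 tumours. In bulk tissue, fewer cells of a type and less RNA per cell cannot be told apart. The labels give each tumour an animal number of its own, and the p-values measure the spread between these animals.

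Of the 5 genes, 4 were higher in responders than in non-responders, with study 2 and study 3 weighted equally. Both receptors, Pdgfb and Pdgfc passed, and Pdgfa did not. By the brightest probe set of each gene the rise was 2.32-fold for Pdgfra, 1.87-fold for Pdgfrb, 1.69-fold for Pdgfc and 1.45-fold for Pdgfb. In all, 6 of the 11 probe sets were higher at an adjusted p under 0.05 and none was lower. Over all probe sets tested, 16.7% were higher and 44.6% differed in either direction. With 1 probe set a gene, 4 of 5 members were higher, against 18.2% of 18194 genes higher and 49.6% in either direction. Tests are limma fits over all probe sets with Benjamini-Hochberg adjustment, and a fold is a ratio of geometric means.

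**Figure D1:**
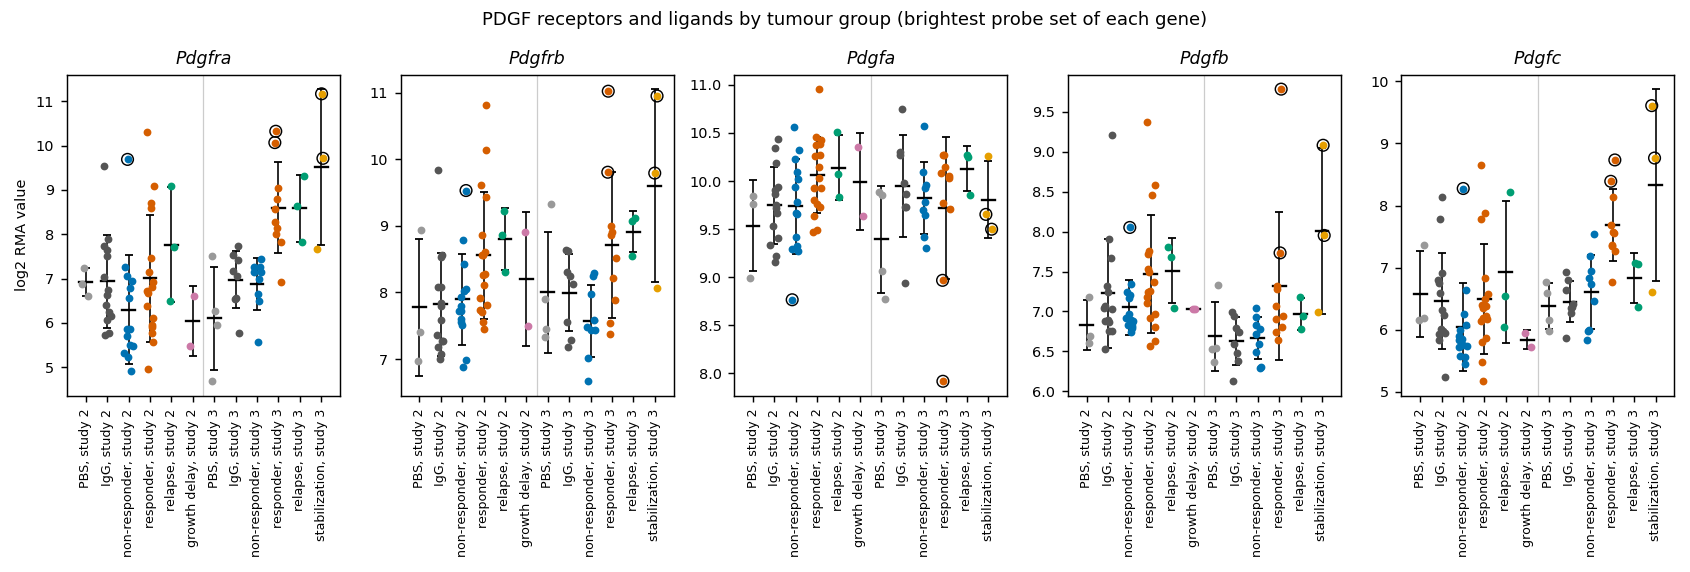
Log2 RMA value of the brightest probe set of each gene (vertical axis, separate scale for each gene) in the 90 tumours, by outcome and study (horizontal axis); bars are the mean and 1 SD, and circled points are the 5 tumours low in melanocyte transcripts. Circled tumours are at or near the top of their groups for Pdgfra, Pdgfrb, Pdgfb and Pdgfc, and study 3 responders 3 and 4 are the lowest of their group for Pdgfa.

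Pdgfra, the receptor that binds PDGF-A, PDGF-B and PDGF-C and marks connective tissue fibroblasts, ranged from 4.68 to 11.17 on the log2 scale over the 90 tumours. In study 3 its log2 value ran from 6.92 through a median of 8.42 to 10.32 in responders and from 5.56 through 7.14 to 7.43 in non-responders. Of the 10 responders, 9 lay above every non-responder. In study 2 the responders ran from 4.96 through 6.72 to 10.31 and the non-responders from 4.91 through 5.85 to 9.69. There 14 of 17 responders lay above the non-responder median, but the ranges overlapped almost completely. The difference, averaged over both studies, was 1.21 ± 0.32 (SE) with an adjusted p of 0.00266 in limma.

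The order of Pdgfra over the 12 groups began with the stabilized tumours, responders and relapsed tumours of study 3. The 3 stabilized tumours had 7.67, 9.71 and 11.17, and the 3 relapsed tumours of study 3 had 7.81, 8.63 and 9.32. Study 3 responders averaged 8.60 ± 1.025 (SD, n = 10), beside 6.88 ± 0.58 (n = 9) in non-responders and 6.97 ± 0.65 (n = 8) in IgG tumours. The 4 PBS tumours of study 3 had 4.68, 5.96, 6.26 and 7.52, the lowest mean of that study. In study 2 the relapsed tumours had 6.49, 7.72 and 9.09, the highest mean there, followed by responders at 7.004 ± 1.42 (n = 17), IgG tumours at 6.94 ± 1.05 (n = 14) and PBS tumours at 6.92 ± 0.32 (n = 3). Non-responders (6.30 ± 1.23, n = 14) and growth delay (5.475 and 6.604) came last in study 2. None of the 11 steps between neighbours in the order of all 12 groups exceeded the SDs of both groups, the widest step being 0.92 between stabilized tumours and responders of study 3.

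The 3 probe sets of Pdgfra gave different sizes of change. The brightest differed by 1.21, while 1438946_at differed by 0.08 ± 0.10 and 1421916_at by 0.19 ± 0.11, with limma adjusted p-values of 0.494 and 0.159. Their values correlated with the brightest across the 90 tumours (r = 0.69 for each), but they moved only 0.19 and 0.21 log2 units per unit of the brightest. Their mean values ranked at percentiles 28.1 and 21.5 of all probe sets, beside 60.8 for the brightest. The call for Pdgfra therefore rests on 1 of 3 probe sets.

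Pdgfrb (chr18:61045127-61085067 on GRCm38.p6) encodes the receptor of pericytes and smooth muscle, which binds PDGF-B and PDGF-D. In study 3 its brightest probe set ran from 7.38 through 8.69 to 11.02 in responders and from 6.67 through 7.48 to 8.29 in non-responders, and 6 of 10 responders exceeded every non-responder. Study 2 responders ran from 7.45 through 8.28 to 10.81 and non-responders from 6.89 through 7.76 to 9.53, with 13 of 17 responders above the non-responder median. Averaged over both studies, the difference was 0.90 ± 0.24 (limma adjusted p = 0.00279). The second probe set, 1417148_at, differed by 0.40 ± 0.13 (limma adjusted p = 0.0117). The probe sets of Pdgfrb had r = 0.87 over 90 tumours, with a slope of 0.46, so both gave the same direction and the dimmer one a smaller size.

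Across the groups of study 3, Pdgfrb averaged 9.61 ± 1.45 in stabilized tumours (8.07, 9.79 and 10.95), 8.91 ± 0.31 in relapsed tumours (8.55, 9.07 and 9.12) and 8.71 ± 1.09 in responders. PBS tumours had 7.34, 7.45, 7.89 and 9.32, IgG tumours averaged 7.995 ± 0.58 and non-responders 7.57 ± 0.54. The PBS tumour at 9.32 is the one with the 3 prime minus 5 prime difference of 5.20. In study 2, relapsed tumours had 8.30, 8.87 and 9.23, responders averaged 8.56 ± 0.95, and growth delay tumours had 7.49 and 8.91. Non-responders at 7.90 ± 0.68, IgG tumours at 7.82 ± 0.77 and PBS tumours at 6.98, 7.41 and 8.94 followed. No step in the order of 12 groups exceeded both SDs.

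Pdgfb, the chain that endothelium secretes to recruit pericytes, was higher in responders by 0.54 ± 0.17 (limma adjusted p = 0.0111). Study 3 responders ran from 6.65 through 7.003 to 9.78 and non-responders from 6.29 through 6.72 to 7.05. Responder 4 had 9.78 and the next responder 7.73, and 5 of 10 responders exceeded all non-responders. In study 2 responders ran from 6.57 through 7.26 to 9.36 and non-responders from 6.75 through 6.90 to 8.05. There 14 of 17 responders lay above the non-responder median, and no non-responder lay below every responder. The second probe set of Pdgfb differed by 0.09 ± 0.07 (limma adjusted p = 0.28). It followed the first with r = 0.67 and a slope of 0.28, so for Pdgfb 1 of 2 probe sets passed.

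Stabilized tumours were at 6.999, 7.951 and 9.08 for Pdgfb, the highest mean of the 12 groups at 8.01 ± 1.04. Next came study 2 relapsed tumours (7.04, 7.68 and 7.81), study 2 responders (7.47 ± 0.74), study 3 responders (7.32 ± 0.92) and study 2 IgG tumours (7.23 ± 0.68). The remaining means were 7.05 ± 0.34 in non-responders, 7.03 in both growth delay tumours (7.03 and 7.04) and 6.83 ± 0.31 in PBS tumours of study 2. In study 3 they were 6.96 ± 0.20 in relapsed tumours, 6.69 ± 0.43 in PBS tumours, 6.67 ± 0.27 in non-responders and 6.63 ± 0.30 in IgG tumours. Again no step exceeded both SDs.

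Pdgfc, a chain that is secreted with a CUB domain and activated by proteolysis, passed on both of its probe sets. They differed between responders and non-responders by 0.76 ± 0.21 and 0.97 ± 0.25, with limma adjusted p-values of 0.00406 and 0.00219. Across tumours they had r = 0.97 and a slope of 1.15. In study 3 the responders ran from 6.76 through 7.56 to 8.73 and the non-responders from 5.83 through 6.73 to 7.55. All 10 responders lay above the non-responder median and 6 above every non-responder. In study 2 the responders ran from 5.17 through 6.34 to 8.65 and the non-responders from 5.45 through 5.84 to 8.27, where the highest non-responder is tumour 14, one of the 5 low in melanocyte transcripts.

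The group means of Pdgfc were 8.33 ± 1.55 in stabilized tumours (6.61, 8.77 and 9.61) and 7.68 ± 0.58 in study 3 responders. Relapsed tumours had 6.37, 7.06 and 7.07 in study 3 and 6.04, 6.54 and 8.21 in study 2. The other groups of study 3 were close together, at 6.61 ± 0.59 in non-responders, 6.45 ± 0.33 in IgG tumours and 6.38 ± 0.37 in PBS tumours. Study 2 gave 6.57 ± 0.69 in PBS tumours, 6.49 ± 0.88 in responders, 6.46 ± 0.78 in IgG tumours, 6.04 ± 0.71 in non-responders, and 5.73 and 5.94 in growth delay tumours. For this probe set no step between neighbours exceeded both SDs, and for the second probe set 1 of 11 did.

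Pdgfa, the chain that binds PDGFR alpha, did not pass in any comparison of outcomes. Its probe sets differed between responders and non-responders by 0.11 ± 0.14 and 0.12 ± 0.15, with 95% intervals from -0.17 to 0.39 and from -0.17 to 0.41 (limma adjusted p = 0.517 and 0.491). In study 2 responders ran from 9.47 through 10.03 to 10.96 and non-responders from 8.77 through 9.73 to 10.56. In study 3 responders ran from 7.92 through 10.04 to 10.27 and non-responders from 9.30 through 9.79 to 10.57, so no responder exceeded every non-responder. The differences were 0.32 ± 0.17 in study 2 and -0.10 ± 0.22 in study 3. The lowest values of study 3 responders, 7.92 and 8.97, belong to tumours 3 and 4.

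Among the 12 groups the brightest Pdgfa probe set spanned 9.39 to 10.14 in mean. Relapsed tumours were at the top with 9.84, 10.08 and 10.51 in study 2 and 9.86, 10.25 and 10.27 in study 3. Responders of study 2 (10.06 ± 0.40), growth delay (9.64 and 10.35) and IgG tumours of study 3 (9.95 ± 0.53) came next. Non-responders averaged 9.82 ± 0.38 in study 3 and 9.74 ± 0.49 in study 2, stabilized tumours 9.80 ± 0.40, IgG tumours of study 2 9.75 ± 0.40 and responders of study 3 9.72 ± 0.74. PBS tumours were lowest, at 9.53 ± 0.47 in study 2 and 9.39 ± 0.56 in study 3. The Pdgfa probe sets had r = 0.86 over all tumours, 0.93 within groups, and a slope of 0.98, but ordered the groups differently. On 1418711_at the means ran from 9.07 in study 3 PBS tumours to 10.08 in study 2 relapsed tumours. Every study 2 group except PBS (9.38) lay above every study 3 group there, and study 3 relapsed tumours were at 9.52.

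**Figure D2:**
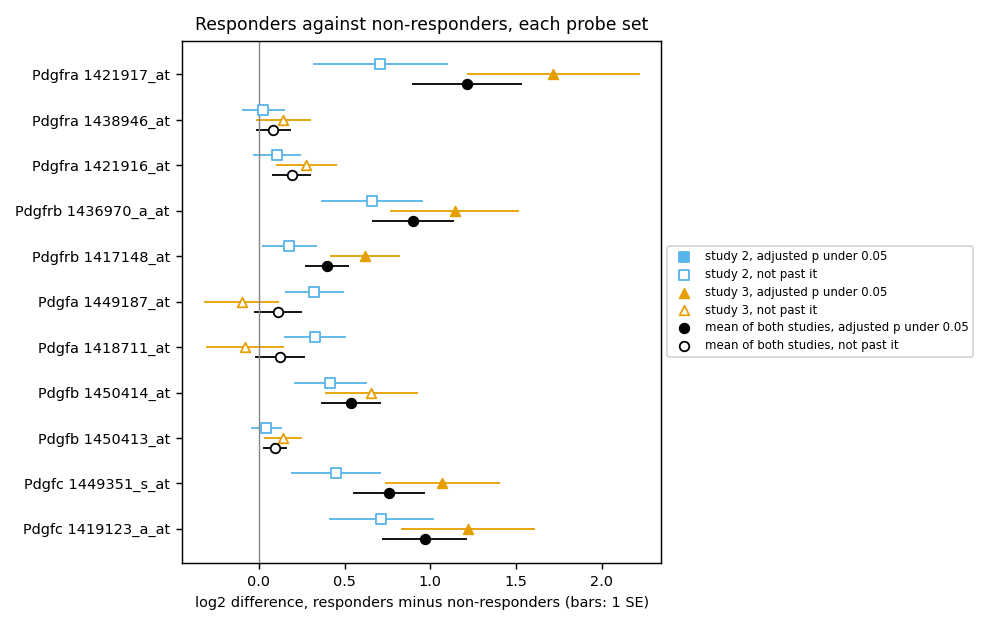
Log2 difference of responders minus non-responders (horizontal axis, with 1 SE) for each of the 11 probe sets (vertical axis), in study 2, in study 3 and as the mean of both; filled symbols passed an adjusted p of 0.05. No study 2 symbol is filled, 5 of study 3 are, and 6 of the means are.

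Taken study by study, the members passed only in study 3. There 5 of 11 probe sets were higher in responders, against 12.3% of all probe sets higher and 30.6% in either direction. The differences were 1.72 ± 0.50 for Pdgfra (limma adjusted p = 0.0099), 1.14 ± 0.38 for Pdgfrb (0.0188), 1.07 ± 0.33 for Pdgfc (0.0139) and 0.66 ± 0.27 for Pdgfb (0.0568). In study 2 none of the 11 passed in limma, where 1.73% of all probe sets did, and 2 had an unadjusted p under 0.05, the brightest of Pdgfrb (0.0284) and the second of Pdgfc (0.0227). The study 2 differences of Pdgfra, Pdgfrb, Pdgfb and Pdgfc were 0.71 ± 0.39, 0.66 ± 0.30, 0.42 ± 0.21 and 0.45 ± 0.26. No member passed the limma test of the difference between the studies, nor reached an unadjusted p under 0.05 (0 of 11), and 0.00286% of all probe sets passed. For Pdgfra that difference was 1.01 with a 95% interval from -0.27 to 2.28, so the data do not show that the studies differ or that they are alike.

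The calls in each study changed when the 5 tumours low in melanocyte transcripts were left out. For Pdgfra, Pdgfrb, Pdgfb and Pdgfc these tumours were the highest or second highest of their groups, so leaving them out lowers those group means. Without them, study 2 gave differences of 0.97 for Pdgfra, 0.79 for Pdgfrb, 0.49 for Pdgfb and 0.62 for Pdgfc, all past the threshold in limma (adjusted p = 0.0456, 0.0303, 0.0423 and 0.0487). Study 3 then gave 1.32, 0.72, 0.30 and 0.85, none past it (0.0597, 0.16, 0.396 and 0.0618). Over all 34958 probe sets, calls without the 5 tumours went from 604 to 6944 in study 2 and from 10708 to 3364 in study 3. For the mean of both studies they went from 15583 to 14152. Of the calls without the 5 tumours, 2905, 1728 and 5349 were higher, in that order. Averaged over both studies, the 4 genes still passed without the 5 tumours, with 1.14 for Pdgfra (0.00239), 0.75 for Pdgfrb (0.00606), 0.40 for Pdgfb (0.0288) and 0.73 for Pdgfc (0.00263). Without study 3 responder 4 alone, Pdgfrb gave 0.88 in study 3 and missed the threshold (adjusted p = 0.0743), while Pdgfra (0.0323) and Pdgfc (0.0413) kept their calls.

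Against the IgG controls, responders were higher in 5 of the 11 probe sets, from 4 genes, where 12.3% of all probe sets were higher and 29.9% differed. The limma differences were 0.85 ± 0.33 for Pdgfra (adjusted p = 0.0416), 0.73 ± 0.24 for Pdgfrb (0.0206), 0.46 ± 0.18 for Pdgfb (0.039) and 0.63 ± 0.22 for Pdgfc (0.0233). Pdgfa differed by 0.04 ± 0.14 (0.826). The studies gave different values, with Pdgfra at 0.07 ± 0.40 (limma adjusted p = 0.912) in study 2 and 1.62 ± 0.52 (0.0275) in study 3, and Pdgfc at 0.03 ± 0.26 (0.942) and 1.23 ± 0.34 (0.0131). Pdgfrb was at 0.73 ± 0.30 (0.0613) and 0.72 ± 0.39 (0.195), and Pdgfb at 0.24 ± 0.22 (0.409) and 0.69 ± 0.28 (0.0802). No member passed in study 2, and the difference between the studies was not tested for this comparison. This comparison uses the same responders as the one with non-responders. Without study 3 responder 4 it left only Pdgfc (0.0495), with Pdgfra at 0.0839, Pdgfrb at 0.0561 and Pdgfb at 0.116, and without all 5 tumours it left none. For non-responders against IgG no member passed, with differences of -0.37 for Pdgfra, -0.17 for Pdgfrb, -0.07 for Pdgfb, -0.13 for Pdgfc and -0.07 for Pdgfa; 0.00286% of all probe sets passed there and no member had an unadjusted p under 0.05 in limma.

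Relapsed tumours, which had regressed and grown back, were higher than non-responders in the brightest probe set of each receptor. The limma difference was 1.59 ± 0.51 for Pdgfra (adjusted p = 0.0286) and 1.12 ± 0.38 for Pdgfrb (0.0349), and the ligands did not pass. The other receptor probe sets did not pass either. They differed by 0.107 and 0.095 for Pdgfra (limma adjusted p = 0.625 and 0.71) and by 0.47 for Pdgfrb (0.0825). Thus 2 of 11 probe sets were higher, where 7.41% of all probe sets were higher and 18% differed in either direction. Each group holds only 3 relapsed tumours, and leaving out tumour 1 or 3 of either study ended both calls, the differences then lying between 1.26 and 1.60 for Pdgfra and between 1.02 and 1.11 for Pdgfrb. Calls over all probe sets fell as well, from 6300 to 906 and 2384 without study 2 tumours 1 and 3 in turn. Without study 3 tumours 1 and 3 in turn they fell to 2007 and 1593. Against responders no member passed in limma (0% of all probe sets), and 0 of 11 had an unadjusted p under 0.05. Against IgG none passed either (0.492%), and 2 had an unadjusted p under 0.05, where Pdgfra differed by 1.22 (limma adjusted p = 0.12) and Pdgfrb by 0.95 (0.112).

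The 3 stabilized tumours of study 3 differed from non-responders in every member except Pdgfa. All 9 probe sets of the other genes were higher, where 11.8% of all probe sets were higher and 26% differed. The limma differences were 2.64 ± 0.73 for Pdgfra (adjusted p = 0.00714), 2.03 ± 0.55 for Pdgfrb (0.00592), 1.34 ± 0.40 for Pdgfb (0.0106), 1.72 ± 0.48 for Pdgfc (0.00796) and -0.02 ± 0.32 for Pdgfa (0.968). Stabilized tumours 1 and 2 belong to the 5 low in melanocyte transcripts, with list means of 6.94 and 8.70, and tumour 3, at 9.73, had 7.67 for Pdgfra, beside 7.43 in the highest non-responder. Without tumour 1 none of the 5 genes passed, with Pdgfra at 1.81 (limma adjusted p = 0.293). Without tumour 2 only Pdgfrb passed, at 1.94 (0.0462), with Pdgfra at 2.54 (0.0503). Over all 34958 probe sets, calls fell from 9104 to 1 without tumour 1 and to 2892 without tumour 2, so the loss was not particular to these genes. Leaving out the 5 tumours leaves 1 stabilized tumour. Against responders of study 3 no member passed in limma, where 0.1% of all probe sets did, and 3 of 11 had an unadjusted p under 0.05.

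For growth delay, with 2 tumours, no member passed against IgG in limma (0% of all probe sets), and 0 of 11 had an unadjusted p under 0.05. For IgG against PBS no member passed in study 2, where 0.00286% of all probe sets passed and the dimmer Pdgfb probe set alone had an unadjusted limma p under 0.05 (0.0416). In study 3 none passed either (1.03%) and 0 of 11 had an unadjusted p under 0.05 in limma. The difference of Pdgfra there was 0.87 (adjusted p = 0.651), and 0.82 (0.654) without PBS tumour 2. The test for any difference from IgG among all outcomes was passed by 7 of 11 probe sets, where 43% of all probe sets passed. They were 2 of Pdgfra (adjusted p = 0.00182 and 0.0491), both of Pdgfrb (0.0106 and 0.0306), both of Pdgfc (0.00453 and 0.00356) and the brightest of Pdgfb (0.0334). By the brightest probe set, the 12 groups held 39.8% of the variance of Pdgfra, 39.1% of Pdgfc, 28.1% of Pdgfrb, 26.7% of Pdgfb and 14.1% of Pdgfa, beside a median of 27.7% over all probe sets. The other probe sets gave 24.4% and 18% for Pdgfra, 40.5% for Pdgfc, 25.4% for Pdgfrb, 29.3% for Pdgfb and 28.5% for Pdgfa.

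Most of the variation lay within groups, and there 4 of the genes moved together. Correlations (r) were computed on deviations from the 12 group means over 90 tumours. For rho the values were first ranked over all 90 tumours, and the deviations of the ranks from their group means were correlated. The p-values came from 100000 permutations within groups, of which 1e-05 is the smallest possible, and were adjusted over the 10 pairs. Pdgfra and Pdgfc had r = 0.84 (rho = 0.75), Pdgfrb and Pdgfb r = 0.81 (rho = 0.68), and Pdgfra had r = 0.73 with Pdgfrb (rho = 0.56) and r = 0.73 with Pdgfb (rho = 0.52), each with an adjusted permutation p of 2e-05 for r and 2.5e-05 for rho. Without the 2 tumours farthest from the median of the first gene these were 0.83, 0.77, 0.71 and 0.73. Within study 2 they were 0.86, 0.79, 0.77 and 0.76, and within study 3 0.77, 0.84, 0.67 and 0.69.

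The remaining pairs were weaker. Pdgfb with Pdgfc had r = 0.62 (2e-05) but rho = 0.23 (adjusted permutation p = 0.0512), and Pdgfrb with Pdgfc r = 0.52 (4.29e-05) and rho = 0.23 (0.0512). Without the 2 farthest tumours r was 0.56 and 0.47, and without the 5 tumours low in melanocyte transcripts 0.53 and 0.37 (adjusted permutation p = 0.00022 and 0.00426). Pdgfa went the other way from Pdgfc, with r = -0.44 (adjusted permutation p = 3.33e-05) and rho = -0.43 (0.00018), and r = -0.44 without the 2 farthest tumours. In study 2 that correlation was -0.44, in study 3 -0.49, and without the 5 tumours low in melanocyte transcripts -0.33. Pdgfa with Pdgfra (r = -0.22, adjusted permutation p = 0.0624), with Pdgfrb (-0.01, 0.963) and with Pdgfb (-0.08, 0.543) did not pass. Without the 5 tumours these were 0.02, 0.33 and 0.22, of which Pdgfa with Pdgfrb passed (adjusted permutation p = 0.867, 0.0051 and 0.0598).

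**Figure D3:**
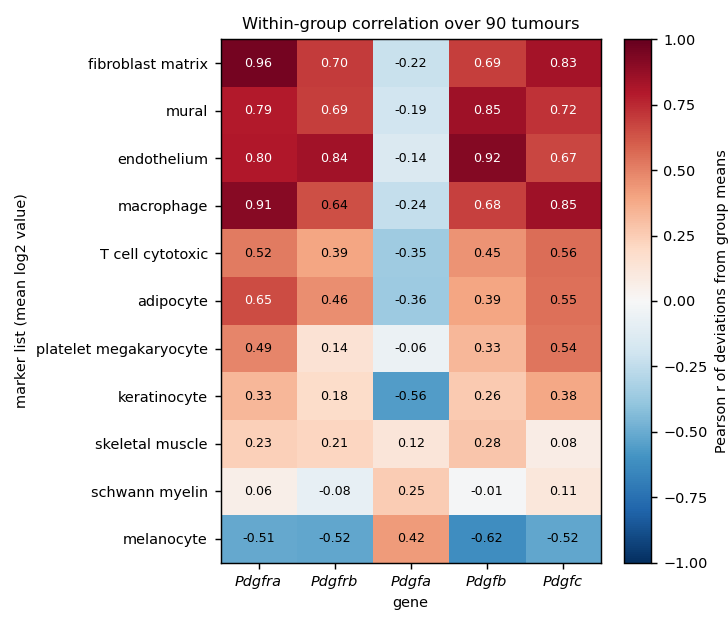
Pearson r between each gene (columns) and the mean of each marker list (rows) over 90 tumours, after subtracting the mean of each tumour's group; the colour scale runs from -1 to 1. Pdgfra has r = 0.96 with the fibroblast list, Pdgfb 0.92 with the endothelium list, and the highest value of Pdgfa is 0.42, with the melanocyte list.

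The marker list with the highest r was not the same for every gene, but many relations were shared. Lists of 11 cell types gave 55 relations with the 5 genes, computed as above and adjusted over the 55, and 39 passed. Pdgfra, Pdgfrb, Pdgfb and Pdgfc each had r of 0.64 or more with the fibroblast, mural, endothelium and macrophage lists. Their r with the melanocyte list was -0.51, -0.52, -0.62 and -0.52, in that order, and each passed. Once the 5 tumours with few melanocyte transcripts were left out, these were -0.35, -0.16, -0.42 and -0.39. No difference between r values was tested. The brightest Pdgfra probe set tracked the fibroblast list most closely, with r = 0.96 and rho = 0.96, and r = 0.96 also without the 2 farthest tumours, in study 2 and in study 3 (adjusted permutation p = 2.39e-05). It had r = 0.91 with the macrophage list, with rho = 0.88. The dimmer Pdgfra probe sets had lower values with the fibroblast list, r = 0.68 for 1438946_at and 0.65 for 1421916_at, and other lists were as high, the mural list at 0.69 for the first and the endothelium list at 0.65 for the second. The fibroblast list holds 15 measured genes of matrix and mesenchyme, and none of the 5 PDGF genes.

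Pdgfb tracked the endothelium list, with r = 0.92 and rho = 0.78 (0.88 without the 2 farthest tumours, 0.94 in study 2 and 0.90 in study 3), and the mural list with r = 0.85 and rho = 0.52. Pdgfrb had its highest value with the endothelium list too, r = 0.84 and rho = 0.71 (0.80 without the 2 farthest tumours, 0.83 in study 2 and 0.86 in study 3). With the mural list, whose genes mark the cells that PDGFR beta is known for, Pdgfrb had r = 0.69 and rho = 0.39. Pdgfc had r = 0.85 with the macrophage list (rho = 0.78) and r = 0.83 with the fibroblast list (rho = 0.76). Each of these had an adjusted permutation p of 2.39e-05 for r. On the second probe sets, Pdgfb 1450413_at had r = 0.66 with the endothelium list and 0.67 with the mural list, Pdgfrb 1417148_at 0.84 and 0.71, and Pdgfc 1419123_a_at 0.87 with the fibroblast list and 0.91 with the macrophage list. The r of Pdgfb 1450413_at with Pdgfrb was 0.46.

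Pdgfa had a negative r with each of the fibroblast, mural, endothelium and macrophage lists. Of these only the macrophage list passed (r = -0.24, adjusted permutation p = 0.0399). The cytotoxic T cell list (-0.35, 0.00196) and the adipocyte list (-0.36, 0.00481) passed as well. Without the 5 tumours low in melanocyte transcripts these 3 values were -0.035, -0.12 and -0.13. The r of Pdgfa that was largest in size was with the keratinocyte list (r = -0.56, rho = -0.40, adjusted permutation p = 6.35e-05). It fell in size to -0.35 without the 2 farthest tumours. Excluding the 5 tumours named above gave -0.29 (adjusted permutation p = 0.013). The keratinocyte list was dim, with group means from 4.39 to 4.71. For scale, the Pdgfra probe set 1421916_at, with a mean of 4.47, ranked at percentile 21.5 of all probe sets. Study 3 responder 3 had the highest keratinocyte value, 5.51. With the melanocyte list Pdgfa had r = 0.42 (adjusted permutation p = 0.0074). This r was 0.10 without the 2 farthest tumours, 0.04 in study 2 and -0.22 without the 5 tumours low in melanocyte transcripts, so it rests on those tumours. Platelet genes, named for the cells in which PDGF was found, had r = 0.54 with Pdgfc, 0.49 with Pdgfra, 0.33 with Pdgfb and 0.14 with Pdgfrb.

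**Figure D4:**
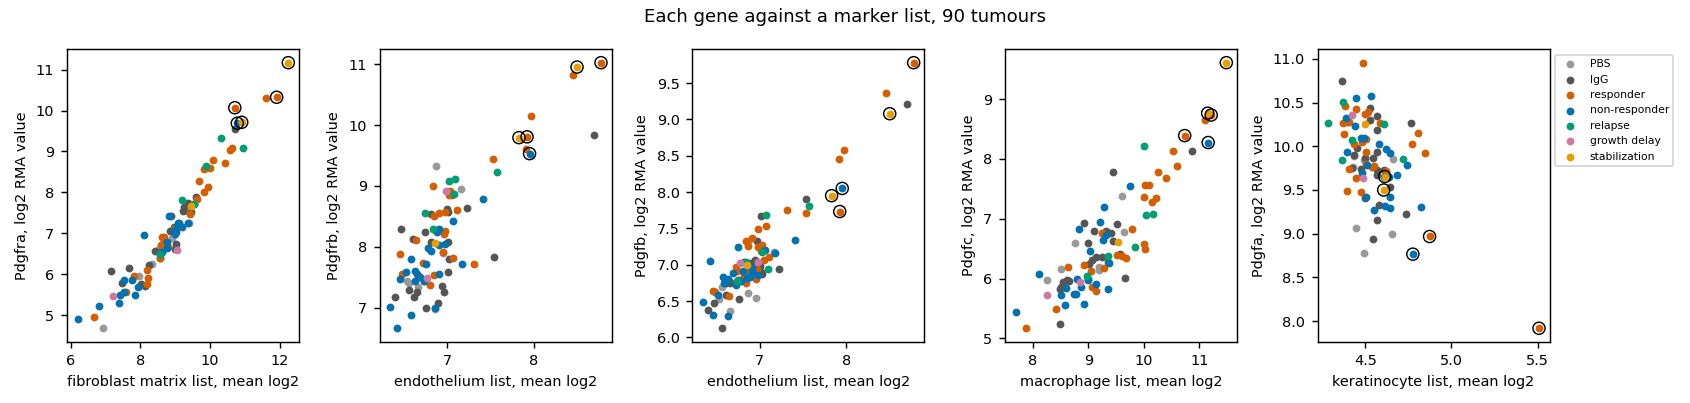
Log2 RMA value of a gene (vertical axis) against the mean log2 value of a marker list (horizontal axis) in each of 90 tumours, coloured by outcome, with the 5 tumours low in melanocyte transcripts circled. The panels pair Pdgfra with the fibroblast list (r = 0.96 within groups) and Pdgfrb and Pdgfb with the endothelium list (0.84 and 0.92). Pdgfc is paired with the macrophage list (0.85) and Pdgfa with the keratinocyte list (-0.56), where study 3 responder 3 stands far to the right. The keratinocyte list lay between 4.29 and 4.85 in the tumours not circled.

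Some of these lists also moved between responders and non-responders, and their part in the differences of the PDGF genes was not tested. Over all 18194 genes 49.6% were called in either direction and 18.2% higher. In limma 15 of 15 fibroblast genes were higher in responders, with a median difference of 1.005, beside a median of -0.06 over 18194 genes. They included Thy1 (1.19 ± 0.27, adjusted p = 0.000678), Col5a1 (0.97 ± 0.24, 0.00135) and Col1a1 (1.47 ± 0.39, 0.00286). Of the macrophage genes 12 of 13 were higher (median 0.79), of the cytotoxic T cell genes 11 of 11 (1.44), of the endothelium genes 7 of 14 (0.31), and of the mural genes 5 were higher and 2 lower of 15 (0.21). Adipocyte genes were higher in 5 of 8 (0.82), and melanocyte genes lower in 7 of 15 (-0.34). Counted in either direction, the endothelium, mural and melanocyte lists are near the 49.6% of all genes called. In 1 direction they lie above the share of all genes. Endothelium and mural genes higher compare with 18.2% of all genes, and melanocyte genes lower with 5700 of 18194 genes. Of the platelet genes 3 of 9 were lower (-0.11), of the keratinocyte genes 1 was higher and 3 lower of 10 (-0.05), of the Schwann cell genes 1 of 5 was higher (-0.01), and of the skeletal muscle genes none of 13 passed (-0.10). The fibroblast list mean ran from 8.68 to 11.91 in study 3 responders and from 7.53 to 9.37 in study 3 non-responders, and from 6.67 to 11.59 and from 6.20 to 10.78 in study 2. The melanocyte list ran from 6.69 to 9.87 and from 9.58 to 9.95 in study 3, and from 9.02 to 9.94 and from 8.29 to 9.99 in study 2. The endothelium list ran from 6.46 to 8.78 in study 3 responders and from 6.34 to 6.91 in non-responders.

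Single genes most like each member were taken as the 5 with the highest correlation of deviations from group means among 18193 other genes, 90 tumours each, given as a description. For Pdgfra they were Ccdc80 (r = 0.96), Ptgfrn (0.95), Prrx1 (0.95), Nid1 (0.95) and Scara3 (0.94), where Prrx1 is a mesenchymal transcription factor and Nid1 encodes the basement membrane protein nidogen. For Pdgfrb they were Rab11fip5 (0.92), Sash1 (0.91), Lrp1 (0.91), Man2c1 (0.91) and Antxr1 (0.90). Lrp1 encodes a large endocytic receptor that binds PDGFR beta. For Pdgfb they were Robo4 (0.93), Notch4 (0.92), Sox7 (0.92), Sema7a (0.91) and Tie1 (0.91). Robo4, Notch4, Sox7 and Tie1 are known as genes of endothelium, and Robo4 and Tie1 are in the endothelium list used above. For Pdgfc they were Mrc1 (0.91), Hacd4 (0.90), Lipo3 (0.90), Fap (0.90) and Abca9 (0.89), which include Mrc1, the mannose receptor of macrophages and a gene of the macrophage list, and Fap, a fibroblast protease of the fibroblast list. For Pdgfa they were Adamts1 (0.87), Lhfp (0.82), Cttn (0.82), Plp2 (0.82) and Cd109 (0.81). The median over all genes lay between -0.14 and -0.01 for the 5 members.

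Other genes of the pathway were described from a list of 39, in which 16 were higher in responders, 1 was lower and 22 did not pass in limma, with a median difference of 0.19. Over all 18194 genes 18.2% were higher and 49.6% were called in either direction. Counted in either direction, the pathway list was therefore not called more often than genes in general. Higher calls alone, 16 of 39, were more frequent than the 18.2% of all genes. The counts by role below are small and compare with these same shares of all genes. The closest relatives are Pdgfd, the fourth ligand, and Pdgfrl, a receptor-like secreted protein. Pdgfrl was higher by 0.59 ± 0.21 (adjusted p = 0.0182), and the brightest Pdgfd probe set differed by 0.25 ± 0.18 (0.227). Against IgG, Pdgfrl was higher in responders by 0.59 ± 0.21 (0.0294).

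Of the proteins that bind PDGF or its receptors, 3 of 3 genes were higher: Lrp1 by 0.95 ± 0.21 (limma adjusted p = 0.000561), Nrp1, a co-receptor, by 0.71 ± 0.15 (0.00046) and Sparc, a matrix protein that binds PDGF-B, by 0.22 ± 0.08 (0.0181). Beside 18.2% of all genes higher, 3 of 5 proteases that process ligands were higher. They were Plat, the tissue plasminogen activator that activates PDGF-C (0.56 ± 0.14, 0.00147), Furin, which cleaves PDGF-A and PDGF-B precursors (0.44 ± 0.11, 0.00154) and Pcsk5 (0.54 ± 0.22, 0.0352).

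Of 14 signalling adaptors and enzymes 4 were higher, none was lower and 10 did not pass, where 18.2% of all genes were higher. Pik3r1, the regulatory subunit of phosphatidylinositol 3-kinase, differed by 0.58 ± 0.13 (limma adjusted p = 0.000663), Stat3 by 0.51 ± 0.12 (0.00105) and Grb2 by 0.36 ± 0.10 (0.00347). Of 9 inhibitors 4 were higher and 1 lower. The phosphatase gene Ptpn1 differed by 0.63 ± 0.13 (0.000194), the ubiquitin ligase gene Cblb by 0.81 ± 0.17 (0.000385) and the phosphatase gene Ptprj by 0.57 ± 0.13 (0.000552), and Spry2 was lower (-0.32 ± 0.14, 0.0481). Of 6 early target genes 1 was higher, Junb (0.36 ± 0.12, 0.0108), which is near the 18.2% of all genes higher. Egr1 differed by 0.33 ± 0.19 (0.145) and Ier2 by -0.06 ± 0.08 (0.542).

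**Figure D5:**
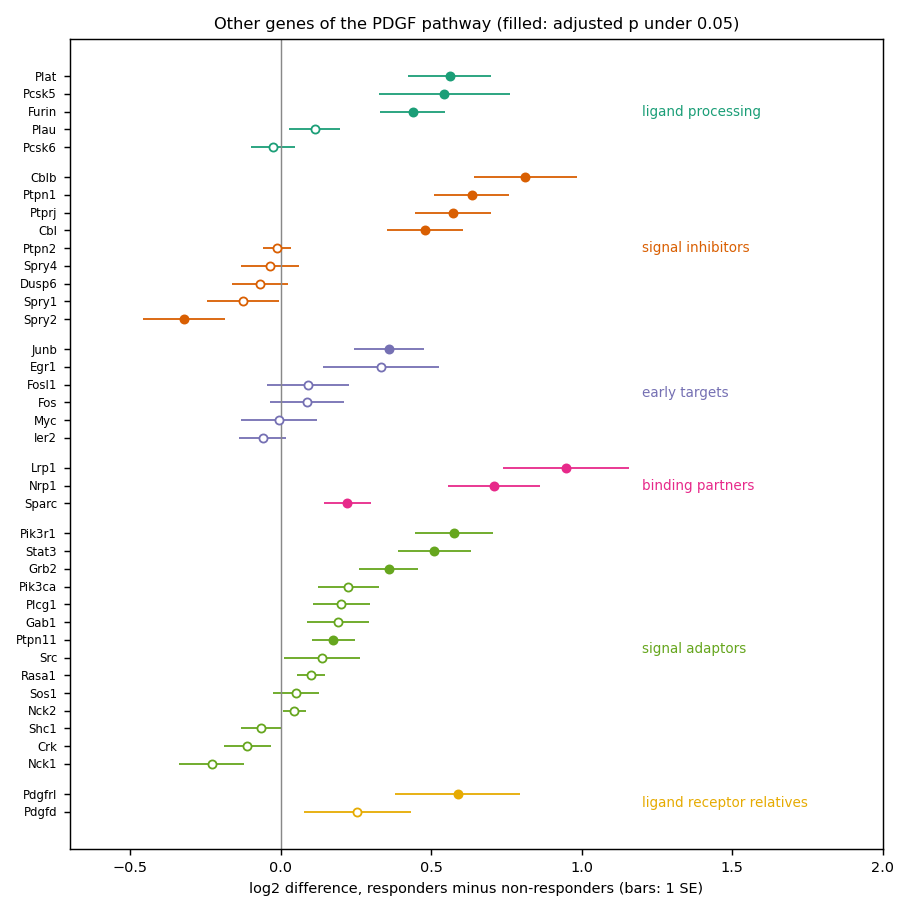
Log2 difference of responders minus non-responders averaged over both studies (horizontal axis, with 1 SE) for 39 other genes of the PDGF pathway (vertical axis), grouped by role; filled points passed an adjusted p of 0.05. All 3 binding partners and 1 of 6 early target genes are filled, where 18.2% of all genes were higher and 49.6% passed in either direction.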

How the data were processed

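Total RNA of 90 subcutaneous tumours was measured on oligonucleotide arrays, 1 array per tumour, from 800 ng of RNA per the labels' protocols. The deposited values are log2 expression values, from 2.19 to 14.84, with array medians between 5.71 and 5.90. The submitters' processing notes name RMA and limma; versions are not given in the sources used here. RMA corrects background, normalizes quantiles over arrays and summarises probes, which compresses changes of dim probe sets. Arrays give no read depth, and the number of tumours limits the precision. Of 45101 probe sets, 34958 have 1 gene symbol in the platform annotation and were used, 932 have several and 9211 none.

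Groups came from the labels. limma 3.58.1 (R 4.3.3) was fitted to all 34958 probe sets with 12 group means, studies weighted equally, with Benjamini-Hochberg adjustment and a threshold of 0.05. A gene is called by its brightest probe set. Named genes are the 5 members, Pdgfd, Pdgfrl, up to 3 genes of each PDGF or marker list by smallest p in responders against non-responders, the 5 genes most like each member, and Cd274; Spry2, the 1 pathway gene that was lower, was added after its value was seen. The members and lists were chosen with earlier results of these data known. Correlations used Python 3.11.15 and numpy 2.4.6. The fit was tested on simulated data. Alternatives covered probe set choice, a filter on dim probe sets, variance trend, array weights (gene-by-gene method), array centring, quantile normalization, RNA quality, the samples in the fit, the study term and pooled controls.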

Additional observations from a re-analysis of the deposited data

Results flagged for a closer look

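In groups of 4 to 10 tumours, 6 of 44 combinations of probe set and group had an extreme tumour whose gap to the next exceeded Dixon's 95% limit, which chance gives in about 1 in 20 groups. Study 3 responder 4 was highest in Pdgfb 1450414_at (9.78, next 7.73) and in Pdgfrb 1417148_at (8.86, next 7.30). Study 3 responder 3 was lowest in Pdgfa 1418711_at (7.33, next 8.90). Both belong to the 5 tumours low in melanocyte transcripts, with melanocyte list means of 6.69 and 6.87. Study 3 non-responder 6 was lowest in Pdgfra 1421917_at (5.56, next 6.49), and non-responder 7 was highest in Pdgfb 1450413_at (6.58, next 5.86). Study 3 PBS tumour 2, the one with the 3 prime minus 5 prime difference of 5.20, was highest in Pdgfrb 1417148_at (7.48, next 6.46).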

How the results depend on the processing

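Counts are of the 5 genes called by their brightest probe set. Responders against non-responders gave 4 under every alternative run except array weights, which gave 5, and the test for any difference among outcomes gave 3 to 5. In that first comparison Pdgfra fell to 0.50 and Pdgfb to 0.32 when all probe sets of a gene were averaged (limma adjusted p = 0.00967 and 0.0175), and adjusted p over the alternatives reached at most 0.0108 for Pdgfra, 0.00842 for Pdgfrb, 0.0355 for Pdgfb and 0.0172 for Pdgfc. Array weights gave 4 genes in place of 0 for study 2, 4 in place of 2 for relapse against non-responders, 2 in place of 0 for relapse against IgG, 5 in place of 0 for stabilization against responders and 2 in place of 0 for IgG against PBS in study 3. Without the 5 tumours low in melanocyte transcripts, responders against non-responders gave 4 in study 2 and 0 in study 3 (3 before), and responders against IgG 0 (4 before). Stabilization against non-responders (4 before) then held 1 stabilized tumour, and no count is given for it. Averaging probe sets gave 2 for responders against IgG and 1 for relapse against non-responders; ignoring the study gave 1 and 1, quantile normalization within study gave 1 for relapse against non-responders, and fitting only the groups compared gave 2 for relapse against IgG. Leaving out 1 tumour at a time gave 0 to 2 genes for relapse against non-responders and 0 to 4 for stabilization against non-responders. Calls over all probe sets then lay between 906 and 4645 for the first (6300 with all tumours). They lay between 1 and 12865 for the second (9104 with all tumours). Leaving out study 3 responder 4, chosen after seeing the data, left 1 gene for responders against IgG. The cause of these changes was not tested. Directions reversed in 11 values, none of them past the threshold under the alternative. With array weights Pdgfra 1438946_at became -0.03 in responders against non-responders and Pdgfa 0.25 in study 3. Without the 5 tumours Pdgfa became 0.22 in study 3, the study difference -0.07 for Pdgfrb and -0.20 for Pdgfb (-0.03 without responder 4 alone, and 0.16, not reversed, without study 2 non-responder 14), and stabilization against non-responders 0.43 for Pdgfa and 0.00 for Pdgfc. Leaving out 1 stabilized tumour at a time, Pdgfa lay between -0.25 and 0.13 (0.06 without tumour 1), and with IgG and PBS pooled it became 0.04 in non-responders. Over all probe sets, study 2 gave 604 calls, 13502 with array weights, 6944 without the 5 tumours and 4347 without non-responder 14. With array weights, calls went from 6300 to 18228 for relapse against non-responders and from 172 to 14744 for relapse against IgG. They went from 35 to 14433 for stabilization against responders and from 359 to 5562 for IgG against PBS in study 3. Without the 5 tumours, calls for responders against IgG fell from 10441 to 5699. No paired analysis was possible because the replicate numbers follow accession order and pair no tumours.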
